A study of Mus musculus with 8 samples.

Results

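The genes of Colq, acetylcholinesterase and the anchoring machinery of the neuromuscular junction (Colq, Ache, Bche, Prima1, Musk, Lrp4, Agrn, Rapsn, Dok7 and Chrnb1) were followed in subcutaneous tumors of a mouse melanoma line. They were chosen by symbol, for their part in this synapse, and all 10 were found among the 28918 genes of the deposited expression table. The tumors were grown in C57BL/6 mice from B16mhgp100, a B16 melanoma line that carries a gp100 antigen, with over-expression of either Colq or the vector alone. Every mouse of both groups received antibody against PD-1 at 200 µg per dose, with 4 doses at 2 per week from day 10, and its tumor was harvested 1 day after dosing ended. There were no tumors without the antibody among these samples, and the labels give neither the age of the mice nor the promoter that drives Colq. The 3 Colq tumors gave 1 library each, and the 3 vector tumors gave 5 libraries, since vector tumors 1 and 2 were sequenced as 2 portions. Portions were averaged before groups were compared, so that each test set 3 tumors against 3.

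The neuromuscular junction is the synapse at which a motor nerve releases acetylcholine onto a muscle fiber. Acetylcholinesterase ends the signal, and a collagen-like tail encoded by Colq holds the enzyme in the basal lamina of the cleft, where it binds perlecan and the receptor kinase MuSK. Nerve-derived agrin binds LRP4, which activates MuSK together with the adaptor DOK7, and the scaffold rapsyn then clusters the acetylcholine receptors, of which Chrnb1 encodes the beta subunit. Butyrylcholinesterase is the second enzyme that splits acetylcholine, and the small membrane protein PRiMA, encoded by Prima1, anchors cholinesterases at cell surfaces in nervous tissue.

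Levels are TPM, the share of transcripts that a gene holds in its library, scaled for gene length. They can be compared between genes, but they keep no library depth. Tests used limma on log2(TPM + 1) for the 13726 genes with a mean of at least 1 TPM over the 6 tumors, with Benjamini-Hochberg adjustment over all of them and a threshold of 0.05. On that scale the change of a low gene is understated. Over all tested genes the log2 fold change, Colq minus vector, had a median of -0.50, against which each value is read. The 3 Colq libraries were closer to each other than portions of a single vector tumor were. Their median absolute log2 difference over tested genes was between 0.106 and 0.111, against 0.144 for the portions of vector tumor 1 and 0.219 for those of vector tumor 2. Calls are therefore also given with the mean of the Colq libraries taken as a single sample. Between 19887 and 21602 genes had a value above 0 per library. The 7 melanoma markers summed to between 10900 and 11300 TPM in Colq libraries and between 17600 and 22300 TPM in vector libraries, and their part in the results below was not tested. On deposited TPM 0 of them were higher and 6 lower, beside 59.6% of all tested genes lower. After size factors 2 were higher and 4 lower, beside 28% and 25.5% of all tested genes. Without the trend on length and GC content 1 was higher and 4 were lower, beside 19.9% and 27.7%. The labels do not say whether the tumors came from separate mice, and the p-values measure the spread between these samples only. In bulk tissue, fewer cells of a type and less RNA per cell cannot be told apart.

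The parts of these transcripts by which the enzyme meets its anchors are shown first. Every Colq library lay above every vector library for both anchors, Colq and Prima1, and not for Ache, the enzyme. Colq was over-expressed by design. Prima1 did not exceed 0.18 TPM in any library. Of the genes under a mean of 1 TPM with a value above 0, 4.1% were higher in the same sense. Both anchors hold acetylcholinesterase through a proline-rich stretch, to which the tryptophan-bearing C-terminal peptide of the enzyme binds. The 20 codons richest in proline codons in each anchor and the in-frame end of the last coding exon of Ache were read from a GENCODE (vM21) coding transcript of each gene on GRCm38. Proline codons stand in capitals for the anchors, and tryptophan codons stand in capitals for the enzyme.
Colq, chr14:31553740-31553799, minus strand, codons 54 to 73 of 457: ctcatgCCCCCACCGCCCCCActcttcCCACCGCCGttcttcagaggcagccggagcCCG
Prima1, chr12:103235605-103235664, minus strand, codons 51 to 70 of 153: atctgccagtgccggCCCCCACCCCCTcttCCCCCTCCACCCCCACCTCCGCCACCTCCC
Ache, chr5:137294119-137294235, plus strand, codons 576 to 614 of 614: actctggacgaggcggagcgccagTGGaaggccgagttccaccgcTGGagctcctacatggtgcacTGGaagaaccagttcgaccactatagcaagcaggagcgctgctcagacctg

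The window of Colq held 9 proline codons of 20 and that of Prima1 held 14 of 20, while the end of Ache held 3 tryptophan codons. All 3 stretches are coding exon. The deposited levels were computed on mm39 and per gene, so they are not tied to these coordinates and do not tell which splice forms were present.

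Colq (chromosome 14, minus strand) was first examined as the check of the labels. Its level was 4.05, 5.03 and 3.86 TPM in Colq tumors 1, 2 and 3. In the vector group it was 0 and 0.24 TPM in the portions of tumor 1, 0.10 and 0.03 TPM in those of tumor 2, and 0.18 TPM in tumor 3. No vector library came near the lowest Colq library, so the libraries of the groups did not overlap. The means were 4.31 ± 0.63 and 0.122 ± 0.058 TPM (SD, n = 3 tumors each), a ratio of 35.5. On the log2(TPM + 1) scale Colq rose by 2.24 (SE 0.16, adjusted p = 2.8e-05 by limma). By exact two-sided permutation of the 6 tumors p was 0.1, the smallest that 3 against 3 allows. All permutation tests here are exact and two-sided. Of all tested genes 11.3% were called higher. With the Colq libraries as 1 sample the rise was still called (adjusted p = 0.0086), beside 5.74% of tested genes. Some 64.8% of genes in the table had a lower mean level in Colq tumors, against 33.5% in vector tumors. The authors' deposited table gives Colq a log2 fold change of 5.48 (SE 0.486, adjusted p = 9.86e-28), on counts and without a pseudocount, and its positive sign was used to read the direction of that table. Of the genes with an adjusted p in the authors' deposited table, 20.1% are higher and 20.4% lower. GENCODE places 5.23% of the exonic bases of Colq inside an overlapping gene model of the same strand, for which no value was used here.

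Skeletal muscle fibers normally make Colq, and markers of these fibers were higher in the Colq tumors. The summed level of 22 muscle fiber markers was between 1049 and 1070 TPM in the Colq libraries and between 44.2 and 207.4 TPM in the vector libraries. On deposited TPM 17 of the 18 tested markers were higher, beside 11.3% of all tested genes. Some markers, such as Myoz1 (10.6 against 0.557 TPM), passed the expression filter only through the Colq tumors. Colq was therefore also expressed relative to that sum. There were 3.84, 4.70 and 3.68 TPM of Colq per 1000 TPM of muscle markers in the Colq tumors. In the vector libraries the ratio was 0 and 1.27 in the portions of tumor 1, 0.482 and 0.678 in those of tumor 2, and 3.04 in tumor 3. All Colq libraries lay above all vector libraries, but vector tumor 3 came close. The mean ratio was 4.07 ± 0.55 against 1.49 ± 1.36 (SD, n = 3 each; exact permutation p = 0.1, the smallest possible), with portions averaged before the ratio was taken. Colq was 2.74-fold above the vector group relative to muscle markers and 35.5-fold above it as a level. The part of muscle RNA in the higher Colq level was not tested. Between the portions of vector tumors 1 and 2, the portion with more muscle marker RNA also held more Colq (0.24 against 0 TPM with 188.8 against 76.5 TPM of markers, and 0.10 against 0.03 TPM with 207.4 against 44.2 TPM). This order was not kept between tumors. Vector tumor 3 held 0.18 TPM of Colq with 59.15 TPM of markers, more Colq than the first portion of tumor 2 with its 207.4 TPM. All these Colq levels were low.

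**Figure D1:**
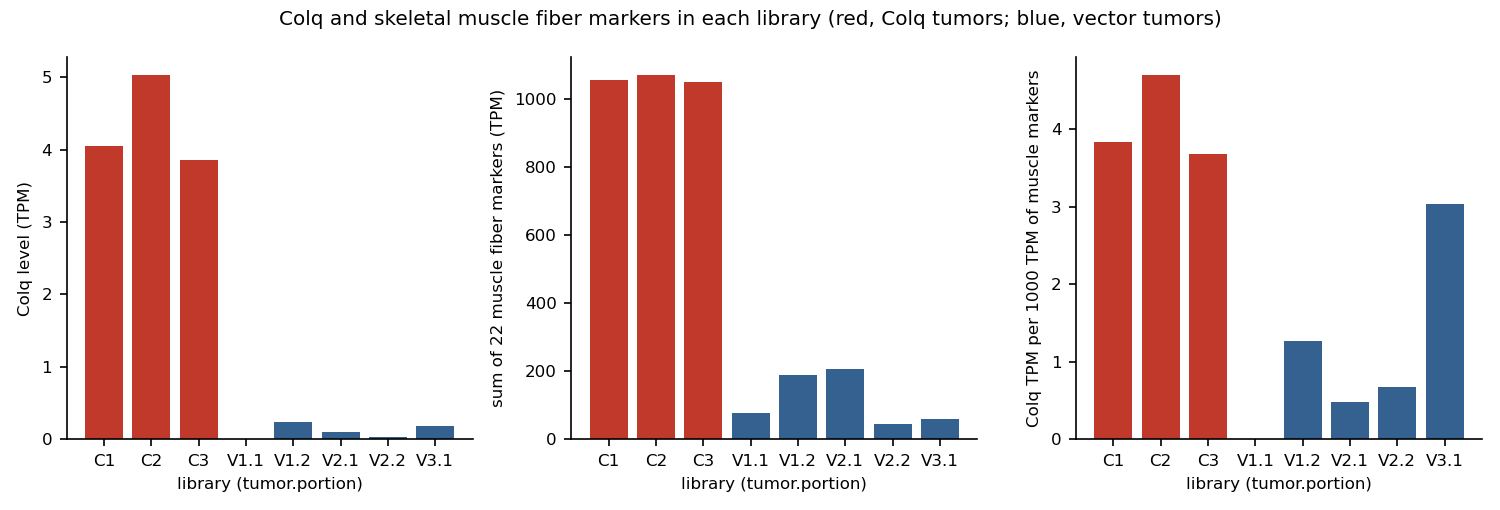
Bars give, for each library, the Colq level in TPM (left), the summed TPM of the 22 muscle fiber markers (middle) and the Colq level per 1000 TPM of those markers (right), with Colq tumors in red and vector tumors in blue, portions as V1.1, V1.2, V2.1 and V2.2. The gap between groups is wide for the level and for the markers, and narrow for the ratio, where vector tumor 3 stands at 3.04 and the lowest Colq library at 3.68.

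Ache, the enzyme that the tail anchors, was low in both groups. It stood at 0.46, 0.45 and 0.50 TPM in the Colq tumors, at 1.06 and 1.13 TPM in the portions of vector tumor 1, at 0.82 and 0.92 TPM in those of tumor 2, and at 0.35 TPM in tumor 3. Portions of 1 tumor were close to each other, and the third vector tumor lay below every Colq library, so the groups overlapped. The means were 0.47 ± 0.03 and 0.77 ± 0.38 TPM (SD, n = 3 each; exact permutation p = 0.4), and the gene was under the level needed for the fit across genes. The number of Colq transcripts per Ache transcript was 8.80, 11.2 and 7.72 in the Colq tumors, and it was between 0 and 0.514 in the vector libraries. Transcripts of the tail thus outnumbered those of the enzyme in every Colq library and were the fewer in every vector library (means 9.23 ± 1.77 and 0.233 ± 0.244, SD, n = 3 each; exact permutation p = 0.1). Colq was over-expressed by design, so this ratio is a check of the labels and its p is no separate result. Some 2.12% of the exonic bases of Ache overlap a noncoding gene on the other strand, and the libraries carried no strand information.

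Bche, the other cholinesterase, was near the limit of detection, at 0.09, 0.06 and 0.07 TPM in the Colq tumors. The vector libraries held 0.03 and 0.05 TPM in tumor 1, 0.01 TPM in both portions of tumor 2, and 0.08 TPM in tumor 3, so the groups overlapped (exact permutation p = 0.3). Ache exceeded Bche in all 8 libraries, by 4.38 to 92.0 times.

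Prima1 was listed at 0 in all 5 vector libraries and at 0.10, 0.18 and 0.17 TPM in the Colq libraries. The groups did not overlap, and Prima1 was the 1 member under the expression filter of which this was true. Of the 13820 genes under the filter with a value above 0, 4.1% were higher and 3.97% lower in every Colq library than in every vector library, and 1.07% shared the form of Prima1, 0 in the vector libraries and above 0 in the Colq libraries. The depth was too low to read more from it. The authors' deposited table gives Prima1 a mean of 0.718 normalized counts per library and a log2 fold change of 2.78 with an SE of 2.85 (p = 0.331, no adjusted p). The exact permutation p was 0.1. Without the expression filter limma called it higher (log2 difference 0.20, adjusted p = 0.0075), when 6.29% of all genes were called higher and 29.3% lower.

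Agrn, which encodes agrin, the heparan sulfate proteoglycan that starts receptor clustering, was among the abundant transcripts and fell in Colq tumors. Its level was 28.0, 28.2 and 26.0 TPM in the Colq tumors, 66.3 and 65.2 TPM in the portions of vector tumor 1, 53.7 and 70.4 TPM in those of tumor 2, and 43.9 TPM in tumor 3. Every vector library was above every Colq library, with vector tumor 3 the lowest of its group. The mean went from 57.2 ± 11.7 to 27.4 ± 1.19 TPM (SD, n = 3 each), and Agrn fell by 1.01 on the log2 scale (SE 0.15, adjusted p = 0.00054 by limma). In the same fit 59.6% of tested genes were called lower, so a lower call by itself does not set a gene apart. Relative to the median of all tested genes the fold change was -0.51. Among the 2170 tested genes with at least 8000 exonic bases, to which Agrn with 9285 and Lrp4 with 10504 belong, the median was -0.88.

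Agrin that clusters receptors carries short inserts from alternative exons, and the gene-level value adds transcripts with and without them. The 24-base and 33-base exons of an annotated Agrn transcript (GENCODE vM21, GRCm38) that encode such inserts are shown in capitals with the coding bases on each side, since no value here speaks to their use.
Agrn exon of 24 bases, chr4:156168546-156168569, minus strand: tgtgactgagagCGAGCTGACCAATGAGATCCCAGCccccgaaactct
Agrn exon of 33 bases, chr4:156167777-156167809, minus strand: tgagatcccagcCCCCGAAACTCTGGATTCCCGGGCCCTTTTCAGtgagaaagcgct

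Of the 7 annotated Agrn transcripts, 2 hold the first of these exons and 1 holds the second.

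Lrp4, the agrin receptor (chromosome 2, 91457511 to 91513779, plus strand, GRCm38), was lower too. Colq tumors held 1.55, 0.99 and 1.52 TPM, the portions of vector tumor 1 held 3.01 and 2.72 TPM, those of tumor 2 held 3.47 and 3.65 TPM, and tumor 3 held 3.29 TPM. The groups did not overlap and portions of a tumor lay close together. The means were 1.35 ± 0.32 and 3.24 ± 0.35 TPM (SD, n = 3 each), and Lrp4 fell by 0.85 on the log2 scale (SE 0.16, adjusted p = 0.0022 by limma). Its exonic length class had a median of -0.88, as given for Agrn. Ligand and receptor were lower in near proportion: Agrn exceeded Lrp4 by 21.2 ± 6.27 times in Colq tumors and 17.9 ± 4.82 times in vector tumors (SD, n = 3 each; exact permutation p = 0.6).

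Both calls depend on the scale. After median-of-ratios size factors, which bring the median of all tested genes to about 0, Agrn stood at -0.45 (adjusted p = 0.040) and Lrp4 at -0.47 (adjusted p = 0.046), where 25.5% of tested genes were lower. When the dependence on exonic length and GC content was taken out of each tumor, Agrn stood at -0.098 (adjusted p = 0.61) and Lrp4 at 0.077 (adjusted p = 0.72), and 19.9% of tested genes were higher and 27.7% lower. The authors' deposited table gives Agrn a log2 fold change of -0.523 (adjusted p = 0.00101) and Lrp4 one of -0.714 (adjusted p = 0.00437). With the Colq libraries as 1 sample both were called lower (adjusted p = 0.035 and 0.029), where 41.6% of tested genes were.

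Musk, the receptor kinase that the ColQ tail binds, was nearly absent. It stood at 0.04, 0 and 0.03 TPM in the Colq tumors and at 0.03, 0.14, 0.06, 0 and 0.03 TPM in the vector libraries, in the order of the tumors and their portions (exact permutation p = 0.6). The highest value came from the second portion of vector tumor 1. Its mean in the authors' deposited table is 1.17 normalized counts per library. A difference in Musk was not detectable at this depth.

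Dok7, the adaptor that activates MuSK from inside the cell, was at 1.01, 0.70 and 1.02 TPM in the Colq tumors. Vector tumor 1 gave 2.70 and 0.67 TPM in its portions, tumor 2 gave 0.89 and 1.08 TPM, and tumor 3 gave 0.34 TPM. The spread lay inside the vector group, with the highest and the lowest value of all 8 libraries there. The means were 0.91 ± 0.18 and 1.00 ± 0.67 TPM (SD, n = 3 each; exact permutation p = 0.8). The portions of vector tumor 1 differed by 1.15 on the log2(TPM + 1) scale, where the median difference of all tested genes between them was 0.144.

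Rapsn, the receptor scaffold (chromosome 2, 91035620 to 91045729, plus strand, GRCm38), had the highest mean level of the 10 genes in both groups, although in the vector group its libraries overlapped those of Agrn, which was higher in the first portion of tumor 1 and the second portion of tumor 2. It stood at 45.9, 52.3 and 50.6 TPM in the Colq tumors, 58.7 and 69.7 TPM in vector tumor 1, 67.0 and 63.4 TPM in tumor 2, and 77.8 TPM in tumor 3. Some 91.8% of genes in the table had a lower mean level in Colq tumors and 92.0% in vector tumors. The scaffold thus stood far above the receptor subunits it gathers at the synapse. The groups did not overlap, with means of 49.6 ± 3.32 and 69.1 ± 7.59 TPM (SD, n = 3 each), and Rapsn fell by 0.46 on the log2 scale (SE 0.094, adjusted p = 0.0030 by limma). That is 0.03 above the median of all tested genes. After size factors Rapsn stood at 0.10 (adjusted p = 0.38). The call was also lost after removal of the length and GC trend (-0.29, adjusted p = 0.065), and when the Colq libraries made up 1 sample (adjusted p = 0.061). The authors' deposited table gives a log2 fold change of 0.073 (adjusted p = 0.673). The 1571 tested genes with 1000 to 2000 exonic bases, the class of Rapsn with 1802, had a median of -0.02.

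**Figure D2:**
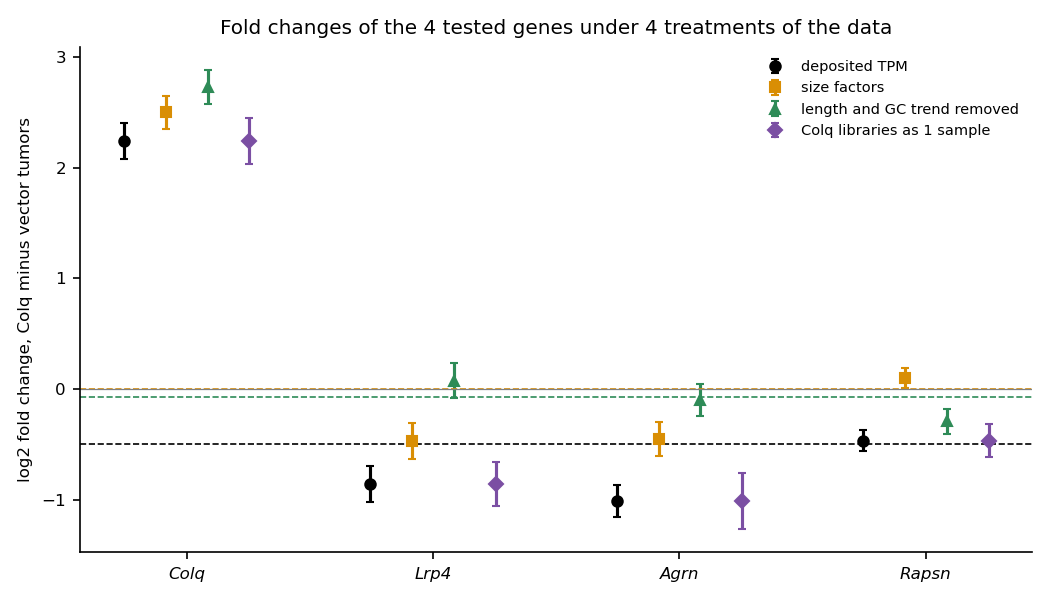
Points give the log2 fold change (Colq minus vector tumors) of the 4 tested genes with its SE, on deposited TPM, after size factors, without the length and GC trend, and when Colq libraries made 1 sample; dashed lines mark the median of all tested genes in the first 3 of these. Colq stays between 2.24 and 2.73, while Lrp4, Agrn and Rapsn move toward 0 or past it, to 0.077, -0.098 and 0.10.

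Chrnb1, the beta subunit of the muscle acetylcholine receptor, differed between vector tumors more than between groups. It was at 0.82, 0.40 and 0.45 TPM in the Colq tumors, at 1.20 and 0.37 TPM in the portions of vector tumor 1, at 2.84 and 2.97 TPM in those of tumor 2, and at 0.46 TPM in tumor 3. Both portions of vector tumor 2 were above every other library. The means were 0.56 ± 0.23 and 1.38 ± 1.33 TPM (SD, n = 3 each; exact permutation p = 0.5). The other subunits were lower than Chrnb1 in every library but the second portion of vector tumor 1, where Chrnd and Chrng exceeded it. Chrna1, the alpha subunit that binds acetylcholine, was between 0.04 and 0.09 TPM in Colq libraries and between 0 and 0.17 TPM in vector libraries. Chrnd, Chrne and Chrng did not exceed 0.04 TPM in any Colq library, although those libraries held the most muscle marker RNA.

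**Figure D3:**
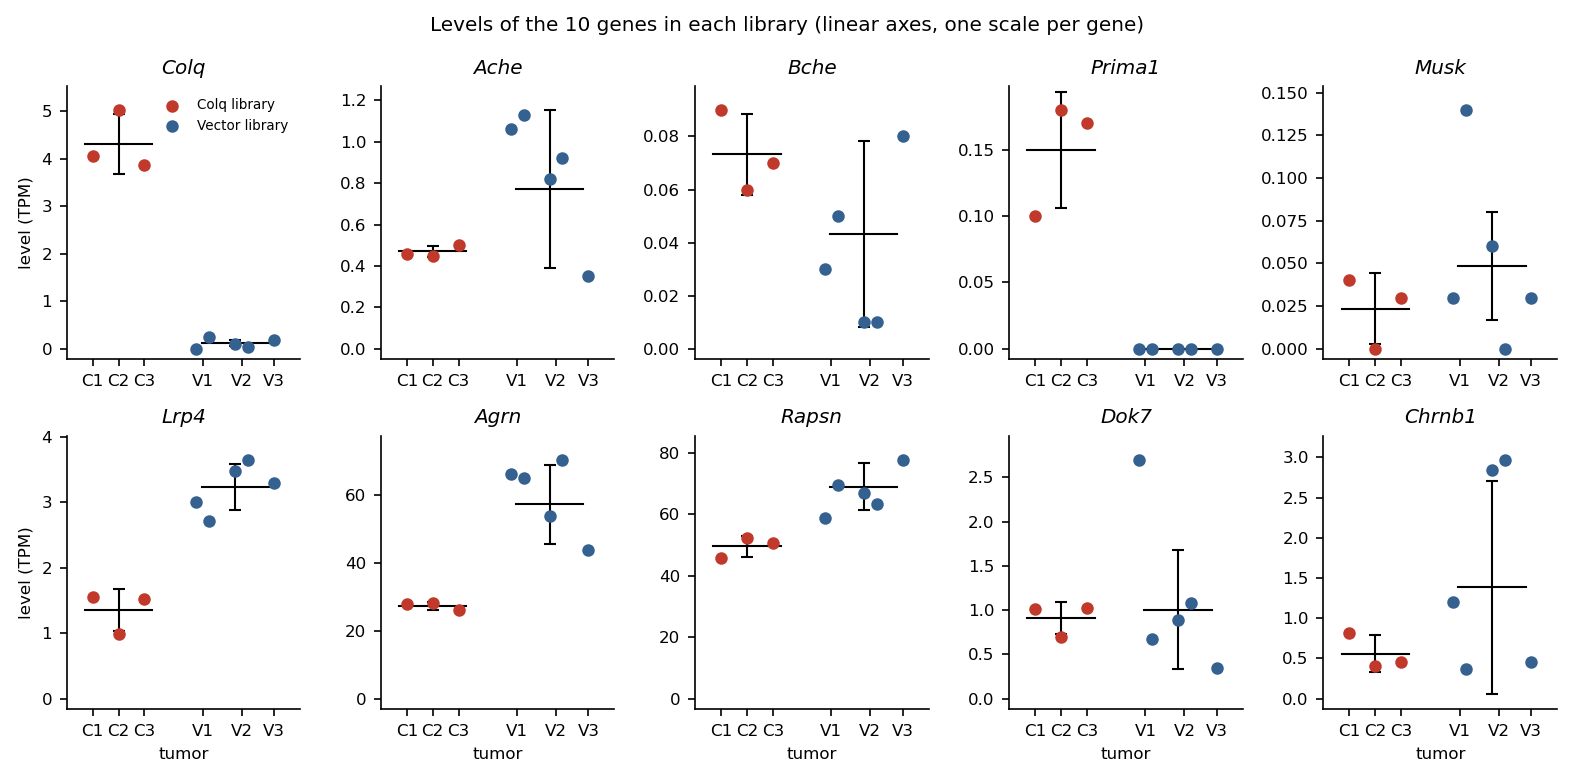
Each panel plots 1 gene, with its level in TPM on a linear axis and a scale of its own; points are libraries by tumor (C1 to C3, Colq; V1 to V3, vector, with portions side by side), and lines with bars are the mean and SD over 3 tumors. The groups stand apart for Colq, Prima1, Lrp4, Agrn and Rapsn and overlap for the other 5 genes, and the portions of V2 stand high together for Chrnb1 while those of V1 differ for Dok7.

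Of the 10 genes, 4 passed the expression filter, 1 being higher and 3 lower, against 11.3% and 59.6% of all tested genes. The 1 higher gene was Colq itself, which was over-expressed by design. It passed the filter only through the Colq tumors (4.31 against 0.122 TPM), so its call is a check of the labels. The libraries of the groups did not overlap for these 4, where 9.92% of tested genes were higher and 57.4% lower in that sense, nor for Prima1 among the 6 under the filter, where 4.1% were higher and 3.97% lower. In vector tumors the order by mean level was Rapsn, Agrn, Lrp4, Chrnb1, Dok7, Ache, Colq, Musk, Bche and Prima1. Neighbors overlapped between libraries at every step except from Agrn to Lrp4, from Ache to Colq and from Bche to Prima1. In Colq tumors Colq moved from place 7 to place 3, behind Rapsn and Agrn and ahead of Lrp4, with no overlap on either side.

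The other genes of the agrin and MuSK pathway were then read from a list of 25, which holds Agrn, Lrp4, Musk, Dok7 and Rapsn as well. Of its 21 tested genes 0 were higher and 19 lower (limma; median log2 fold change -0.70), beside 11.3% and 59.6% of all tested genes with their median of -0.50. Hsp90b1, a chaperone of the endoplasmic reticulum, went from 856 ± 70.6 to 404 ± 5.97 TPM, and Ctnnb1, beta-catenin, from 644 ± 23.0 to 404 ± 11.5 TPM (SD, n = 3 each). Macf1, a linker of microtubules and actin, had a log2 fold change of -1.29, and Abl1, a tyrosine kinase, one of -1.06. The counts moved with the scale. After size factors 5 were higher and 10 lower, beside 28% and 25.5% of all tested genes. With the length and GC trend removed 2 were higher and 4 lower, beside 19.9% and 27.7%. The 4 lower ones were Crkl, an adaptor recruited by DOK7 (-0.34), Hsp90b1 (-0.79), the neuregulin receptor Erbb3 (-0.69) and Etv5, a transcription factor (-0.98), and they were called lower in the other 3 treatments too. The share of all tested genes that were lower in all 4 treatments was not counted. Erbb3 was at 7.28, 8.27 and 7.63 TPM in Colq libraries and between 17.3 and 31.1 TPM in vector libraries. Crk and Pak1 were the 2 higher genes with the trend removed (0.33 and 0.80), and Crk was called lower on deposited TPM (-0.15).

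Genes of the synaptic basal lamina, in which the tail is anchored, were read from a list of 22. The list also holds genes of cell-surface proteins, namely the syndecans, Gpc1 and the membrane collagens Col13a1 and Col25a1. Of its 18 tested genes 0 were higher and 16 lower, with a median log2 fold change of -1.18, beside 11.3% and 59.6% of all tested genes. Hspg2, perlecan, which binds the heparan sulfate-binding sites of the ColQ tail, went from 42.7 ± 1.79 to 10.7 ± 0.82 TPM (SD, n = 3 each; log2 fold change -1.91, adjusted p = 9.7e-06). The laminin chain Lamc1 (-1.57) and the collagen IV chains Col4a1 (-2.34) and Col4a2 (-2.23) were lower as well. After size factors 1 was higher, the syndecan Sdc4 (0.24), and 11 were lower, beside 28% and 25.5% of all tested genes. With the length and GC trend removed 3 were higher, Lama5 (0.69), Col4a4 (0.49) and the syndecan Sdc3 (0.55), and 11 were lower, beside 19.9% and 27.7%. In those treatments Hspg2 stood at -1.36 and -0.82, with adjusted p of 3.5e-05 and 0.00045 by limma. Endothelial cells rest on a basal lamina that they help to make. Their markers were lower in 9 of 9 tested genes on deposited TPM (median -1.21), in 8 after size factors (-0.81), in 6 without the length and GC trend (-0.72) and in 8 when Colq libraries made 1 sample, beside 59.6%, 25.5%, 27.7% and 41.6% of all tested genes. Tek, the 1 endothelial marker under the expression filter, did not go with them. It was at 0.71, 0.84 and 1.09 TPM in Colq libraries and between 0.31 and 0.85 TPM in vector libraries. The summed level of the endothelial markers was 104 to 106 TPM in Colq libraries and 243 to 282 TPM in vector libraries. The part of endothelial RNA in the lower Agrn, Hspg2 and laminin levels was not tested.

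The complex of dystrophin and utrophin links agrin and laminin to the cytoskeleton of the fiber through dystroglycan. Of its 13 tested genes of 15, 0 were higher and 9 lower on deposited TPM (median -0.79), beside 11.3% and 59.6% of all tested genes. After size factors 1 was higher and 6 lower, beside 28% and 25.5% of all tested genes. Without the length and GC trend 2 were higher and 2 lower, beside 19.9% and 27.7%. The 2 lower ones were Dag1, dystroglycan, and Utrn, utrophin, the homolog of dystrophin at the synapse. Dag1 went from 85.5 ± 6.41 to 27.4 ± 1.96 TPM (SD, n = 3 each), with log2 fold changes of -1.60, -1.04 and -0.89 in the 3 treatments. Utrn went from 21.9 ± 2.24 to 8.06 ± 0.58 TPM, with -1.33, -0.80 and -0.29.

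The genes that define acetylcholine-releasing cells were near 0. Chat, choline acetyltransferase, and Slc5a7, the high-affinity choline transporter, did not exceed 0.04 and 0.07 TPM in any library. The 6 tested genes of that list were lower on deposited TPM (median -0.83), where 59.6% of all tested genes were, and 3 of them after size factors (median -0.29), where 25.5% were. The smallest p was that of Acly, ATP citrate lyase, which serves lipid synthesis in general and went from 156 ± 10.9 to 52.3 ± 3.03 TPM (SD, n = 3 each). Acly was also the 1 gene of the list called lower with the length and GC trend removed (-0.94, adjusted p = 0.00021). The choline transporters Slc44a1 and Slc44a2 and the choline kinase Chka had log2 fold changes of -0.85, -0.81 and -0.70, none of them called with the length and GC trend removed. Of the 11 neuron markers in the table, the 4 defining ones, Rbfox3, Snap25, Syt1 and Nefl, summed to at most 0.19 TPM, with Snap25 at 0 in every library. The whole list summed to between 22.9 and 27.3 TPM in Colq libraries and between 23.3 and 58.6 TPM in vector libraries. Most of it came from Uchl1 (13.2 to 50.9 TPM) and Prph (4.23 to 10.49 TPM). Neither of these was called different on deposited TPM (adjusted p = 0.12 and 0.22 by limma). After size factors Prph was called higher (0.77, adjusted p = 0.0081 by limma), where 28% of all tested genes were, and Uchl1 was not called. Neither was called with the length and GC trend removed. Of the 9 myogenic progenitor and regenerating fiber markers in the table, Pax7 was at 0 in every library, and the list summed to between 3.03 and 4.73 TPM in Colq libraries and between 4.85 and 10.2 TPM in vector libraries. Most of that was Ncam1, the 1 tested gene, called lower on deposited TPM (-0.69, adjusted p = 0.027) and in none of the other 3 treatments, and Myog reached 1.03 TPM in the first portion of vector tumor 2.

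**Figure D4:**
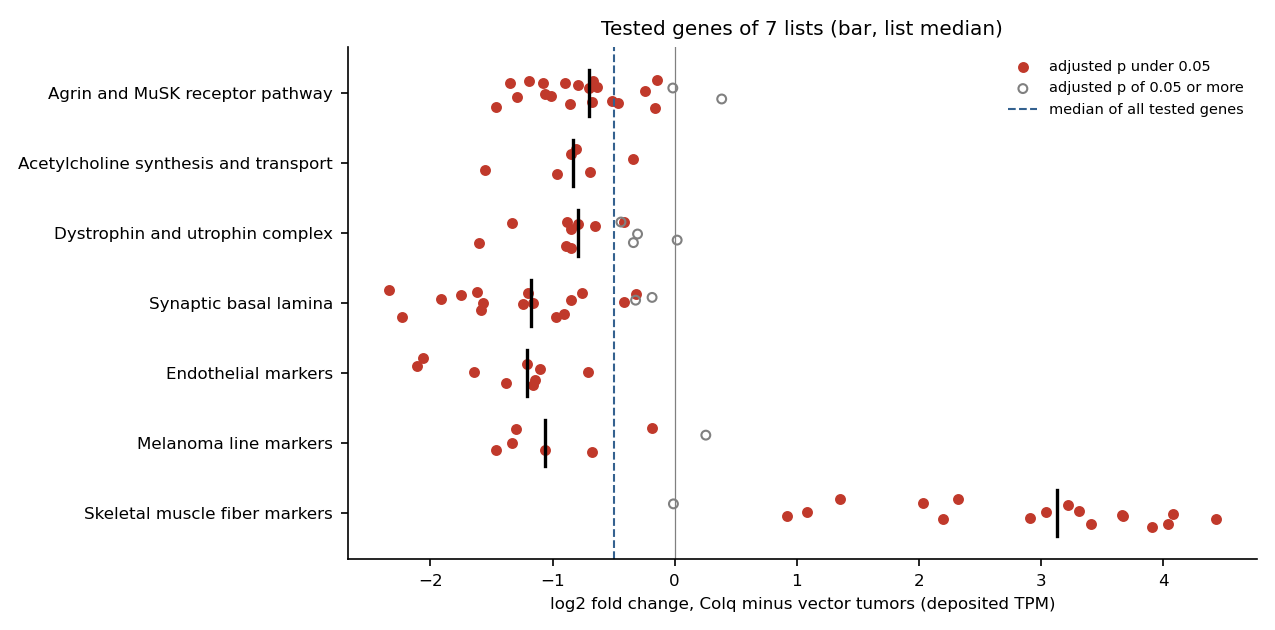
Points are the tested genes of 7 lists by log2 fold change (Colq minus vector tumors, deposited TPM), filled where the adjusted p is under 0.05; black bars are list medians and the dashed line is the median of all tested genes. The medians run from -1.21 for endothelial markers and -1.18 for basal lamina genes to -0.70 for the agrin and MuSK pathway, all left of -0.50 like those of the other 3 lists below 0, and that of muscle fiber markers stands at 3.13.

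The genes whose pattern over the 8 libraries was most like that of a member were found by the mean absolute difference in log2(TPM + 1), after each gene was centered on its mean over the 6 tumors, among 12139 tested genes. For Colq these were Akr1c18, a progesterone-metabolizing enzyme (difference 0.177), the secreted Wnt antagonist Sfrp4 (0.187), the matrix gene Cthrc1 (0.195), the keratin Krt77 (0.202) and the matrix gene Spon2 (0.206). Akr1c18 stood at 4.43 ± 0.45 against 0.082 ± 0.10 TPM (SD, n = 3 each), close to the 2 levels of Colq. The measure keeps the gap between groups, so genes with a like gap come first. The log2 fold changes of these 5 genes ran from 1.96 to 2.59. Like Colq, Akr1c18, Krt77 (0.102 TPM in vector tumors) and Spon2 (0.242 TPM) passed the expression filter only through the Colq tumors. For Agrn the nearest were Irs2, an adaptor of insulin signaling (0.059), and the anion channel subunit Lrrc8c (0.059). For Lrp4 they were the ceramide synthase Cers5 (0.055) and Chordc1 (0.059), and for Rapsn the dynactin subunit Actr1b (0.035) and Nme6 (0.043).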

How the data were processed

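RNA-seq of polyadenylated RNA from homogenized bulk tumors was deposited, from libraries without strand information, per the labels' protocols. The values deposited by the authors were read as log2(TPM + 1), since 99.89% of them return to TPM with 2 decimals. RSEM and build mm39 are named by the submitters' processing notes, which name no aligner or annotation. The authors' deposited comparison, from DESeq2 per the submitters' processing notes, gives, per the file headers, the mean of normalized counts (a signal), a log2 fold change, its SE, p-values and adjusted p-values. No source used here says which libraries entered it.

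Sample titles gave the groups and the replicate numbers. Portions of a vector tumor were averaged on the log2 scale for tests and as TPM for means. Tests used limma 3.58.1 under R 4.3.3 (lmFit, then eBayes with a trend) and, for single values, exact two-sided permutation of the 6 tumors. Tables were made with Python 3.11.15, numpy 2.4.6 and pandas 2.3.3, and figures with matplotlib 3.10.9. Exonic length and GC content came from GENCODE on GRCm38, which covered 96.1% of tested genes, and their trend was removed by loess (span 0.5) on each tumor's deviation from the gene mean. The methods were tested on simulated data. For limma 200 of 13726 genes were changed, and it recovered 70% of log2 changes of 1 and 95% of those of 2. The simulated rises and falls were equal in number, so this check does not cover the general shift seen here. Named genes were the 10 members, up to 4 genes of smallest p of each list, and the 5 genes nearest to Colq and 2 nearest to Agrn, Lrp4 and Rapsn, passing over numbered gene models and antigen receptor segments; other list genes were named after their values were seen. Members, lists and tests were chosen with earlier results of these data known. Same-numbered tumors of the groups did not deviate together (correlations 0.030, 0.0070 and 0.044 over tested genes), so the numbers were not taken as pairs. Depth cannot be had from TPM, and the precision is that of the spread over tumors. Receptor repertoire measures were not used.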

Additional observations from a re-analysis of the deposited data

How the results depend on the processing

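Colq was called higher under all 16 alternatives, with log2 fold changes between 2.15 and 2.30 when single tumors were left out. It was 4.44 and 2.96 at pseudocounts of 0.1 and 0.5, 2.50 after size factors and 2.73 with the length and GC trend removed. Of the 10 members, 1 was higher and 3 were lower in every fit that left out a tumor. The number of members called higher was 2 with no filter, where Prima1 was added, and the number called lower was 0 with the length and GC trend removed. Lrp4 then stood at 0.077 and Rapsn, after size factors, at 0.10, both past 0 and neither called. With the replicate number as a block (replicate block), Colq stood at 2.24, 1 member was higher and 3 were lower, and no call on a member changed. Over all genes, 1556 were higher and 8181 lower on deposited TPM, against 3843 and 3505 after size factors, 2619 and 3652 on removal of the length and GC trend, and 788 and 5712 with the Colq libraries as 1 sample. Among members under the filter, the log2 difference of Dok7 ranged from -0.22 to 0.22 and that of Chrnb1 from -0.75 to -0.042 when single tumors were left out. The cause of these moves was not tested. Depth limits what can be said of Bche, Musk and Prima1.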

Other observations

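The second portion of vector tumor 1 held values of the synapse genes that its first portion did not share. Chrnd and Chrng, the delta and the fetal gamma subunit of the muscle receptor, stood at 0.54 and 0.58 TPM there and at no more than 0.03 TPM in any other library. The first portion of the same tumor held 0.67 TPM of Chrne, the adult epsilon subunit, which did not exceed 0.04 TPM elsewhere. Musk (0.14 TPM) and, within the vector group, Colq (0.24 TPM) were also highest in the second portion. Muscle fiber markers summed to 76.5 TPM in the first portion and 188.8 TPM in the second.

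Neuronal-type nicotinic subunits were present at low levels. Chrnb2 fell by 0.64 on the log2 scale (SE 0.16, adjusted p = 0.0082 by limma), from 2.03 ± 0.31 to 0.943 ± 0.083 TPM (SD, n = 3 each), but this call was lost on size factors (adjusted p = 0.13), on removal of the length and GC trend (0.20, adjusted p = 0.30), and when Colq libraries made 1 sample (adjusted p = 0.076). Chrnb4, named after its values were seen and under the expression filter, was at 0.13, 0.12 and 0.13 TPM in Colq tumors 1 to 3 and between 0.38 and 0.65 TPM in the vector libraries, with no overlap. Of the 13820 genes under the filter with a value above 0, 3.97% were lower in that sense, so this does not set Chrnb4 apart.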
